A study of Mus musculus with 20 samples.

Results

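The SLC25 family, the carriers that move metabolites, nucleotides, cofactors and ions across the inner mitochondrial membrane, was followed in fat of Control and Ai-α4KO mice. Its members were taken as every gene whose name is Slc25a followed by a number, which gave 47 of the 25219 genes listed. Most of these carriers share a fold of repeated membrane-spanning segments around a central binding site and exchange 1 substrate for another. In fat they connect the citrate exported for fatty acid synthesis, the acylcarnitines burnt in the matrix and the ADP and ATP turned over by respiration. Uncoupling protein 1, the heat-producing protein of brown fat, belongs to the same family but carries another gene symbol.

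The study compared inguinal white adipose tissue (iWAT) and brown adipose tissue (BAT) of male mice, with 5 libraries in each of 4 groups, by mRNA sequencing 1 week after recombination. Ai-α4KO mice carried floxed alleles of Igbp1, the gene of the PP2A-binding protein α4, together with tamoxifen-inducible CreERT2 driven by the adiponectin promoter, so the deletion is directed to adipocytes while the tissue also holds other cells. Control mice carried the floxed alleles without the Cre transgene according to the study's methods and are labelled WT in the sample records. All animals received 5 injections of tamoxifen from 2 months of age. The labels do not say whether 1 mouse gave both tissues, and the p-values measure the spread between these libraries.

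Levels below are normalised FPKM, which are CPM after TMM scaling, divided by transcript length in kilobases. Differences are log2 fold changes from edgeR's quasi-likelihood test across all genes, given ± SE, and a gene is said to rise or fall where its Benjamini-Hochberg adjusted p was below 0.01. Library totals ran from 24023371 to 50384446 counts. Igbp1 fell from 44.3 ± 4.62 (SD, n = 5) to 7.10 ± 0.259 in iWAT. In BAT its level went from 61.9 ± 4.80 down to 11.2 ± 3.18. The summed level of 8 adipocyte markers was 35160 to 48860 in Control iWAT and 17160 to 23490 in Ai-α4KO iWAT, and 29590 to 33820 against 18900 to 22450 in BAT. The 6 macrophage markers in the table, of 7 listed, summed to 655.2 to 1083 against 4405 to 5999 in iWAT and to 138.7 to 310.2 against 2962 to 4507 in BAT. None of these markers was at 0 in a whole group. In bulk tissue, fewer adipocytes and less RNA per adipocyte cannot be told apart.

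Skeletal muscle transcripts and lymphocyte transcripts varied between libraries. The sum of 7 muscle genes was 542.2 to 5140 in Control BAT and 6844 to 24580 in Ai-α4KO BAT, with no overlap. In iWAT it was 3783 in Control library 4 and 2958 in Ai-α4KO library 1, against 2.873 to 98.27 in the other libraries. The sum of 4 B cell genes was 249.6 and 98.79 in Control iWAT libraries 1 and 4, against 3.418 to 4.437 in the other Control iWAT libraries. Fits without these libraries, all added after the data were seen, are given beside the members whose call they change. Some fits also take a score of the muscle genes as a covariate. In BAT the muscle sums did not overlap between genotypes, so such a fit cannot tell muscle from genotype. Over all genes it gave 2013 rising and 2109 falling in BAT, against 3582 and 3560 without it.

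To show what lies at the start of the genes that the results turn on, 300-base windows (250 before to 50 after the RefSeq start, GRCm38.p6) are printed in gene orientation for the citrate carrier Slc25a1, for the ADP/ATP carriers Slc25a4 and Slc25a5, whose ratio changed, and for the coenzyme A carrier Slc25a42, from the cofactor group whose members all fell in Ai-α4KO BAT. Slc25a1 lies at chr16:17928170-17928469 (minus strand), Slc25a4 at chr8:46211013-46211312 (minus), Slc25a5 at chrX:36795347-36795646 (plus) and Slc25a42 at chr8:70212232-70212531 (minus). Capitals mark matches on either strand to the CCAAT box (CCAAT), the E-box (CACGTG) and an ETS site (CCGGAAG), motifs that do not overlap each other here.
Slc25a1: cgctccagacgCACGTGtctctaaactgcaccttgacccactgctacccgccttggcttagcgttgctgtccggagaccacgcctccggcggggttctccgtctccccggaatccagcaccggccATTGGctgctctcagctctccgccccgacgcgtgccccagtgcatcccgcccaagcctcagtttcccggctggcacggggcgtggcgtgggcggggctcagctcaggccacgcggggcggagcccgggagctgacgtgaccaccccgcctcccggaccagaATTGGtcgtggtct
Slc25a4: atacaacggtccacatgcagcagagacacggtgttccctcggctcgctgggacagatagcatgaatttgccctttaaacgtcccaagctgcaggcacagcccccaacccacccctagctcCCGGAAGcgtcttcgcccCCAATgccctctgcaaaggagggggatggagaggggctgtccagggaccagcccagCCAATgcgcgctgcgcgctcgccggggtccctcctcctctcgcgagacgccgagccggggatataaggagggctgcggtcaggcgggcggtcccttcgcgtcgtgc
Slc25a5: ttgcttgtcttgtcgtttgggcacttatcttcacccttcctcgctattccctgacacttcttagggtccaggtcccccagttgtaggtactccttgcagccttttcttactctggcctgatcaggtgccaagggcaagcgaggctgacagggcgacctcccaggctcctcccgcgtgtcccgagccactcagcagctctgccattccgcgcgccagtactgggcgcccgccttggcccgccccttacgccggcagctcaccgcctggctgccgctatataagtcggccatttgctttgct
Slc25a42: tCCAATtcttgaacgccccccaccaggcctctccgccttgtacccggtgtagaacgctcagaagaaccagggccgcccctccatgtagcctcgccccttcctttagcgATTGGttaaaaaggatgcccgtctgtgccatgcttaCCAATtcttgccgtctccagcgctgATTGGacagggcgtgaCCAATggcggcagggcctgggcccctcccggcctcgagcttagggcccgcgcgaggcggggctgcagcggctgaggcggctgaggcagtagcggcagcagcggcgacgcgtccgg

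The windows of the ADP/ATP carriers differed in these letters. That of Slc25a4 held 1 ETS match and 2 CCAAT matches, while that of Slc25a5 held no match to any motif searched. The window of Slc25a42 held 5 CCAAT matches. Windows were on hand for 36 of the 47 members, and 19 of these, or 52.8%, held a CCAAT match, against 41.1% of 27025 genes. An ETS match was found in 7 members (19.4%, against 9.93% of all genes), among them Slc25a3, Slc25a4 and Slc25a20. An E-box was found in 7 members (19.4%, against 8.09%). The sterol element TCACNCCAC was present in 1 member, Slc25a18, and in 1.44% of all genes. Neither the ERR element TNAAGGTCA (1.43% of all genes) nor the NRF1 core GCGCATGCG (1.95%) occurred in a member's window. The members' windows held a median of 18.5 CpG pairs, against 8 for all genes. These matches describe the windows and are not binding sites.

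In Control tissue a handful of carriers made up most of the family's RNA. The mean level was above 100 normalised FPKM for 6 members in Control iWAT and for 10 in Control BAT, and under 1 for 11 and 9 members. Slc25a1, the citrate carrier that feeds cytosolic acetyl-CoA production, was the highest in Control iWAT at 598 ± 177 (SD), followed by the ADP/ATP carrier Slc25a5 at 403 ± 69.0, its paralog Slc25a4 at 340 ± 45.2 and the phosphate carrier Slc25a3 at 336 ± 43.9. The neighbours Slc25a5, Slc25a4 and Slc25a3 lie within each other's spread. In Control BAT the order was Slc25a4 at 758 ± 107, Slc25a5 at 641 ± 38.9, Slc25a1 at 471 ± 124, the carnitine-acylcarnitine carrier Slc25a20 at 349 ± 48.1 and Slc25a3 at 303 ± 31.5. Slc25a20 overlapped between libraries there with Slc25a3 and with Slc25a1, and so did Slc25a4 with Slc25a5. Slc25a1, Slc25a3, Slc25a4 and Slc25a5 together held 63.9% ± 2.55 of the summed family level in Control iWAT, 61.5% ± 1.61 in Ai-α4KO iWAT, 57.6% ± 3.58 in Control BAT and 72.1% ± 3.65 in Ai-α4KO BAT. Counts on all 47 members were 0.499% ± 0.0343 of the library in Control iWAT, 0.275% ± 0.0297 in Ai-α4KO iWAT, 0.595% ± 0.0184 in Control BAT and 0.429% ± 0.0487 in Ai-α4KO BAT.

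At the low end, Slc25a54 had 0 counts in every library but 1, which had 1 count, and Slc25a41 had at most 4 counts in a library. Slc25a2, Slc25a18, Slc25a41 and Slc25a54 were too low to test in any comparison. Slc25a21 was tested only in iWAT, where it did not pass (−1.55 ± 0.57, adjusted p = 0.0389), and Slc25a43 was not tested between the Control tissues. That left 43 members tested in iWAT, 42 in BAT and 41 between Control tissues.

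To ask how the family differs between normal depots, Control BAT was set against Control iWAT. Of 41 members tested, 14 were higher in BAT and 6 were higher in iWAT, and 9 and 5 of these differed by at least 2-fold. Over all 14260 genes tested, 16.4% were higher in BAT and 20.4% were higher in iWAT, with 7.22% and 14.7% at 2-fold or more. The members' median log2 difference was 0.44, against −0.01 over all genes. The libraries of the Control tissues did not overlap for 20 of 41 members, against 37.6% of all genes. Control iWAT libraries 1 and 4 had the high B cell genes, and library 4 also had the high muscle genes. Without both, Slc25a25, Slc25a32, Slc25a35 and Slc25a36 no longer passed, and Slc25a12 did (1.75 ± 0.45, adjusted p = 0.00916). Leaving out library 4 alone also changed the call on Slc25a12. Without both libraries Slc25a32 was at 1.28 (1.48 with them) and Slc25a35 at 0.68 (0.85 with them). With the muscle score as a covariate, Slc25a17 passed (0.90 ± 0.17, adjusted p = 0.00175), while Slc25a25, Slc25a30, Slc25a33, Slc25a36 and Slc25a42 no longer did. Of these, Slc25a33 was at 0.88 ± 0.40 (adjusted p = 0.114, against 1.44 ± 0.32 without the covariate) and Slc25a42 at 1.64 ± 0.45 (adjusted p = 0.0156). Slc25a30 was at −1.02, against −1.17 without the covariate. Over all fits that lost its call, Slc25a25 was at −1.75 to −0.92, beside −1.29 with all libraries and no covariate. Slc25a36 was at 0.31 to 0.58 over such fits, beside 0.52.

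**Figure D1:**
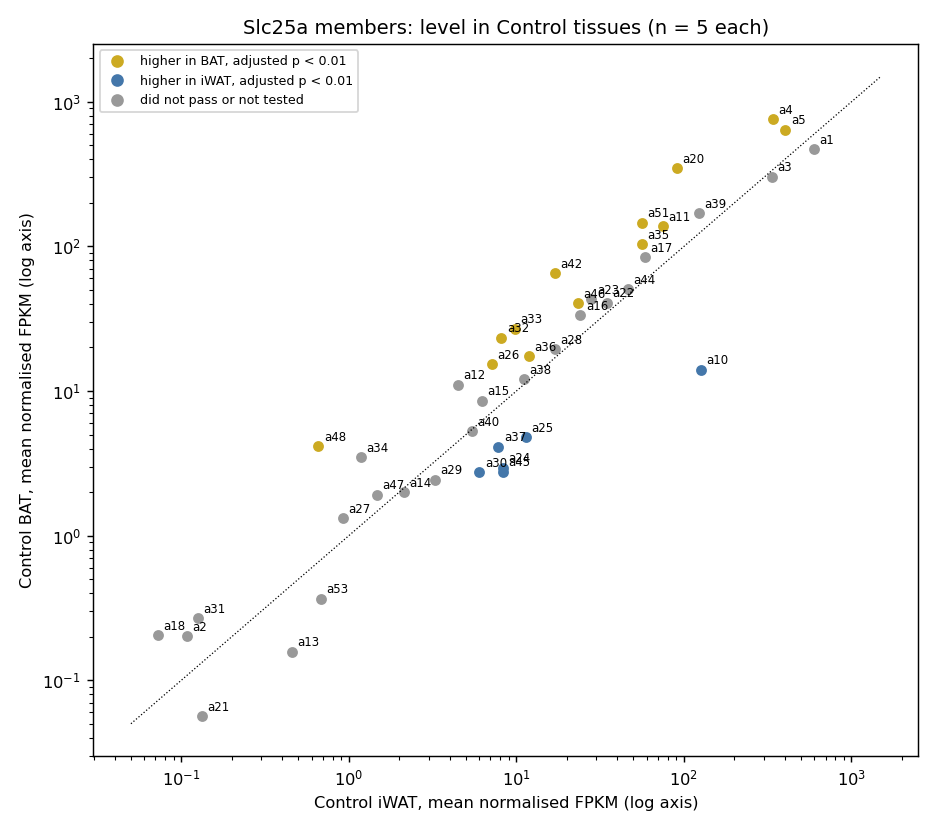
Mean level of each Slc25a member in Control iWAT (x axis) and Control BAT (y axis), in normalised FPKM on log axes, for named members above 0.05 in both. Gold points were higher in BAT and blue points higher in iWAT at adjusted p below 0.01. Slc25a10 lies farthest under the dotted line of equality, at 126 in iWAT and 14.02 in BAT.

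The carriers of cofactors and pyrimidine nucleotides were the group with most members higher in BAT, with 7 of 9, against 16.4% of all genes. The group supplies the matrix with the folate, coenzyme A, NAD and S-adenosylmethionine that its enzymes need. Slc25a51, the NAD carrier, was 146 ± 5.43 against 56.0 ± 11.7 (1.34 ± 0.14, adjusted p = 2.55e-05). Slc25a42 was 65.6 ± 29.7 against 16.96 ± 4.67 (1.92 ± 0.30, adjusted p = 0.000309). Slc25a20, needed for long-chain fatty acid oxidation, was 3.77-fold higher in BAT (1.91 ± 0.18, adjusted p = 1.30e-05). Slc25a48, a carrier that has been linked to choline uptake, was 4.16 ± 1.66 in BAT and 0.658 ± 0.237 in iWAT (2.63 ± 0.35, adjusted p = 0.000117).

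Slc25a10, the dicarboxylate carrier that exchanges malate and succinate for phosphate, went the other way. It was 134.6, 107.4, 111.9, 111.8 and 166 in the Control iWAT libraries and 6.442, 10.92, 13.22, 20.03 and 19.49 in Control BAT, a 9.22-fold difference (−3.21 ± 0.30, adjusted p = 1.36e-05). The other members higher in iWAT were Slc25a24 and Slc25a25, calcium-regulated carriers of ATP-Mg against phosphate, the mitoferrin Slc25a37, the uncoupling-protein-like Slc25a30 and Slc25a45. Their differences ran from −0.96 ± 0.12 for Slc25a37 to −1.61 ± 0.24 for Slc25a45. Slc25a1 did not pass between depots (−0.38 ± 0.24, adjusted p = 0.206), and neither did Slc25a44, the branched-chain amino acid carrier, at 46.3 ± 5.18 and 50.6 ± 1.21 (0.09 ± 0.09, adjusted p = 0.426).

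Loss of α4 was then compared with Control in each tissue. In iWAT, 18 of 43 members fell and 5 rose, and 11 and 4 of them changed by at least 2-fold. Over all 14604 genes tested there, 18.8% fell and 21.5% rose, with 10.7% and 11.3% at 2-fold or more. In BAT, 22 of 42 members fell and 6 rose, with 15 and 5 at 2-fold or more, against 24.8% of 14344 genes that fell, 25% that rose, and 13.3% and 18.2% at 2-fold or more. The members' median log2 fold change was −0.47 in iWAT and −0.68 in BAT, against 0.01 and −0.03 over all genes. The groups' libraries did not overlap for 22 of 43 members in iWAT (39% of all genes) and for 28 of 42 in BAT (47.6%). Of the 42 members tested in both tissues, 14 fell in both, 5 rose in both, 4 passed in iWAT alone, 9 passed in BAT alone and none passed in opposite directions. How all genes split over both tissues was not computed, so these joint counts have no background beside them.

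**Figure D2:**
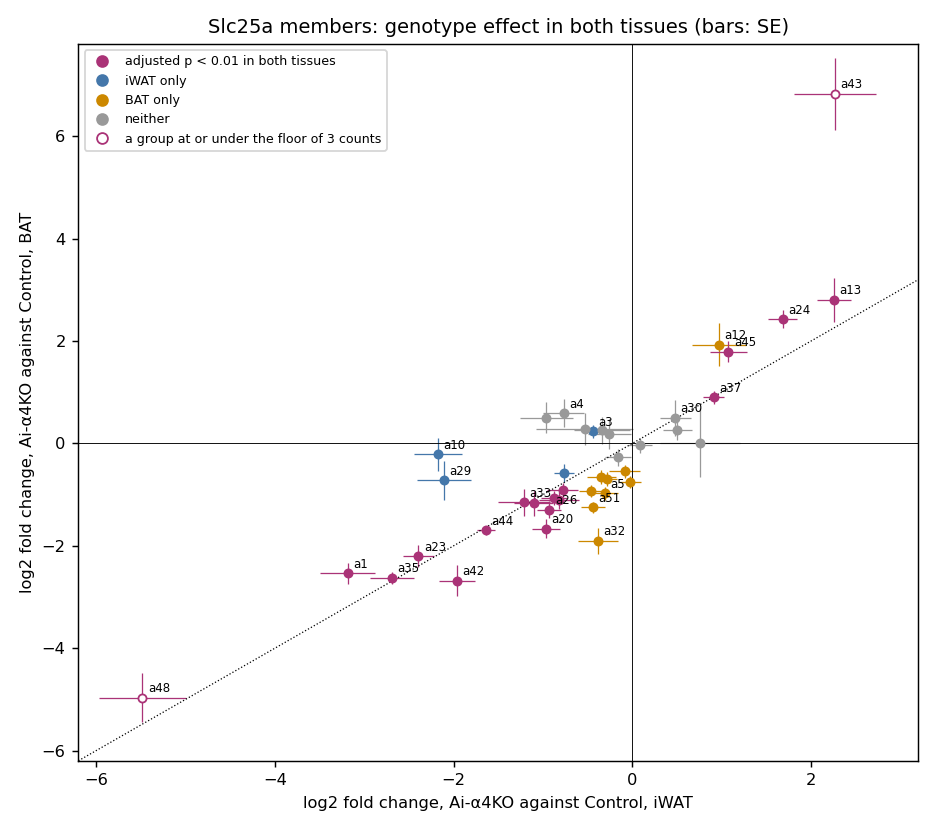
log2 fold change of Ai-α4KO against Control in iWAT (x axis) and BAT (y axis) for 41 of the 42 members tested in both tissues, with SE bars. The dotted line marks equal change. Most members lie below 0 on both axes, while Slc25a13, Slc25a24, Slc25a37, Slc25a43 and Slc25a45, which rose in both tissues, are among those above 0 on both. Open circles are members with a group at or under 3 counts in every library, whose fitted values depend on the prior count.

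Slc25a1 exports citrate from the matrix. Its Control iWAT libraries were at 434.6, 626.4, 885.7, 483.9 and 557.2 and its Ai-α4KO iWAT libraries at 108.5, 57.27, 43.2, 77.5 and 42.83. In BAT they were at 569.5, 455.1, 551.2, 514.6 and 263.8 against 101.5, 70.59, 71.71, 84.05 and 87.45. The groups did not overlap in either tissue, and the citrate carrier fell 9.10-fold in iWAT (−3.19 ± 0.31, adjusted p = 1.17e-05) and 5.81-fold in BAT (−2.54 ± 0.21, adjusted p = 7.80e-07). It moved from the highest level in the family in Control iWAT to rank 5 in Ai-α4KO iWAT. There it lay within the spread of its neighbours in rank, Slc25a39 at 71.7 ± 19.7 and Slc25a20 at 46.5 ± 4.37.

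**Figure D3:**
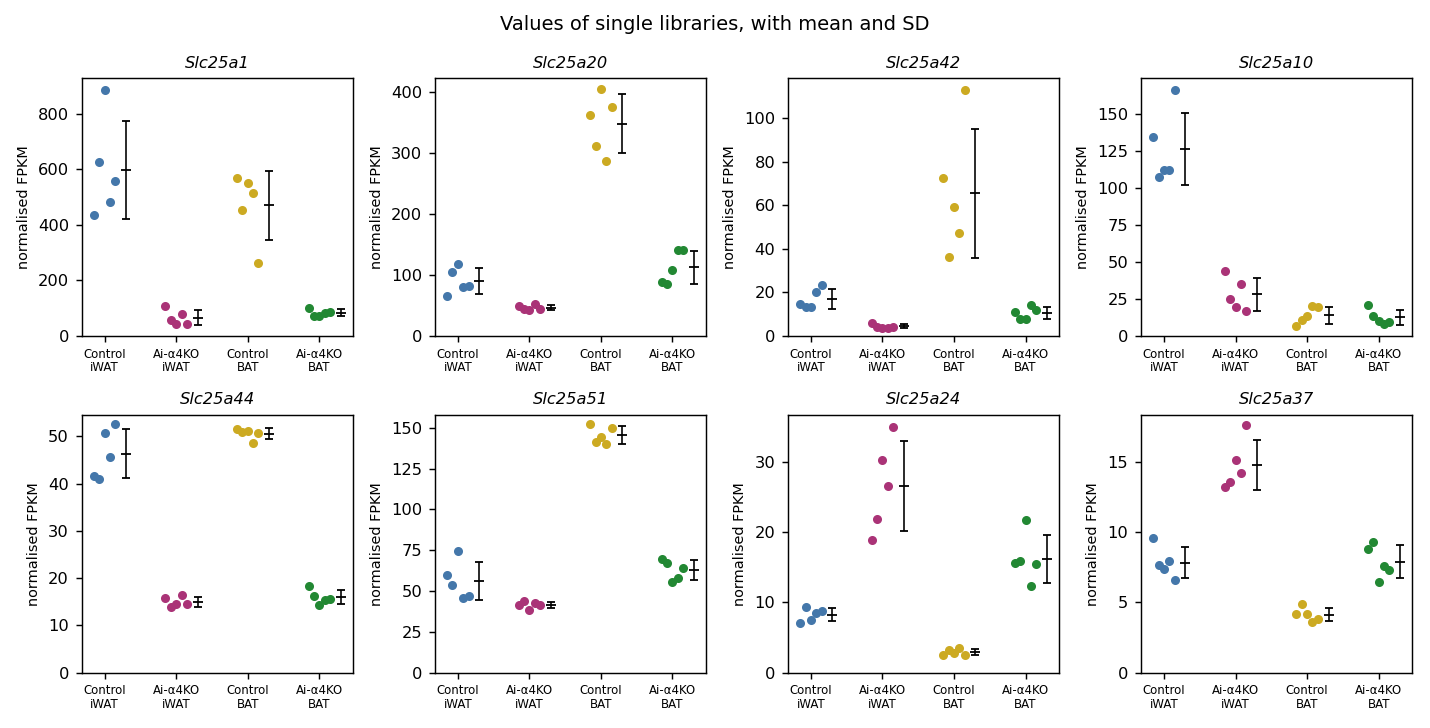
Normalised FPKM of 8 members in each library of the 4 groups (points), with the mean and SD (black). Slc25a1, Slc25a42 and Slc25a44 were lower in every Ai-α4KO library of both tissues than in any Control library of the same tissue, whereas Slc25a10 separated in iWAT and overlapped in BAT, and Slc25a24 and Slc25a37 were higher in every Ai-α4KO library.

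Among the carriers of dicarboxylates, tricarboxylates, aspartate, glutamate and acylcarnitine, Slc25a1 included, 5 of 8 fell and 1 rose in iWAT. Over all genes 18.8% fell and 21.5% rose there. In BAT 3 of 7 fell and 2 rose, beside 24.8% and 25% of all genes. Slc25a20 fell from 90.4 ± 20.97 to 46.5 ± 4.37 in iWAT (−0.97 ± 0.15, adjusted p = 0.000326). In Control BAT its libraries were at 362.3, 312.1, 404.7, 286.9 and 376.5, and in Ai-α4KO BAT at 89.09, 84.58, 107.8, 140.4 and 140.5, so that every Ai-α4KO value lay below every Control value (−1.67 ± 0.18, adjusted p = 7.88e-06). The glutamate carrier Slc25a22 fell in iWAT (−0.83 ± 0.22, adjusted p = 0.00853) and BAT (−1.10 ± 0.17, adjusted p = 0.000135). The oxoglutarate carrier Slc25a11 fell in iWAT (−0.77 ± 0.11, adjusted p = 0.000182) and did not pass in BAT (−0.59 ± 0.18, adjusted p = 0.0127), but did without Control library 1 and Ai-α4KO library 4 (−0.67 ± 0.18, adjusted p = 0.00936). The call on Slc25a22 in iWAT was lost without Control libraries 1 and 4 (−0.84 ± 0.26, adjusted p = 0.0220).

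Slc25a10 fell in iWAT to 43.78, 24.91, 19.42, 35.32 and 16.53, below every Control library (−2.18 ± 0.27, adjusted p = 5.32e-05). In BAT, where it was low already, Ai-α4KO libraries were at 21.16, 13.64, 10.22, 7.853 and 9.356 and overlapped with Control (−0.22 ± 0.32, adjusted p = 0.578). The interaction, which tests the difference between the tissues' effects, was 2.003 ± 0.45 (adjusted p = 0.00707).

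Of the aspartate-glutamate carriers of the malate-aspartate shuttle, Slc25a13 rose in both tissues and Slc25a12 in BAT. Slc25a13 went from 0.458 ± 0.0750 to 2.20 ± 0.341 in iWAT (2.25 ± 0.19, adjusted p = 5.90e-06) and from 0.157 ± 0.126 to 1.15 ± 0.111 in BAT (2.81 ± 0.43, adjusted p = 0.000131), and stayed a low-level member of the family. Its paralog Slc25a12, known for its high level in muscle, was at 3.098, 16.59, 11.73, 9.168 and 14.83 in Control BAT and at 24.76, 24.75, 46.22, 77.94 and 42.21 in Ai-α4KO BAT. All Ai-α4KO values were above all Control values (1.93 ± 0.42, adjusted p = 0.00183). In iWAT it did not pass (0.97 ± 0.30, adjusted p = 0.0188), but it did without Control iWAT library 4 and Ai-α4KO iWAT library 1, which had the high muscle genes (1.17 ± 0.15, adjusted p = 0.000188), and without Control iWAT libraries 1 and 4 (1.36 ± 0.23, adjusted p = 0.000888).

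Slc25a12 and Slc25a4 varied with skeletal muscle genes among BAT libraries. In Control BAT, library 1 had the lowest muscle sum, 542.2, and the lowest Slc25a12 and Slc25a4, 3.098 and 603.5. In Ai-α4KO BAT, library 4 had the highest muscle sum, 24580, and the highest Slc25a12 and Slc25a4, 77.94 and 1961. With the muscle score as a covariate, the BAT difference of Slc25a12 was 0.35 ± 0.19 (adjusted p = 0.164) and no longer passed, and that of Slc25a4 was −0.10 ± 0.33 (adjusted p = 0.828). The genotypes did not overlap in muscle sum in BAT, so this fit cannot tell muscle from genotype. Without Control BAT library 1 and Ai-α4KO BAT library 4, a fit chosen after the data were seen, Slc25a12 still passed (1.42 ± 0.25, adjusted p = 0.000633).

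**Figure D4:**
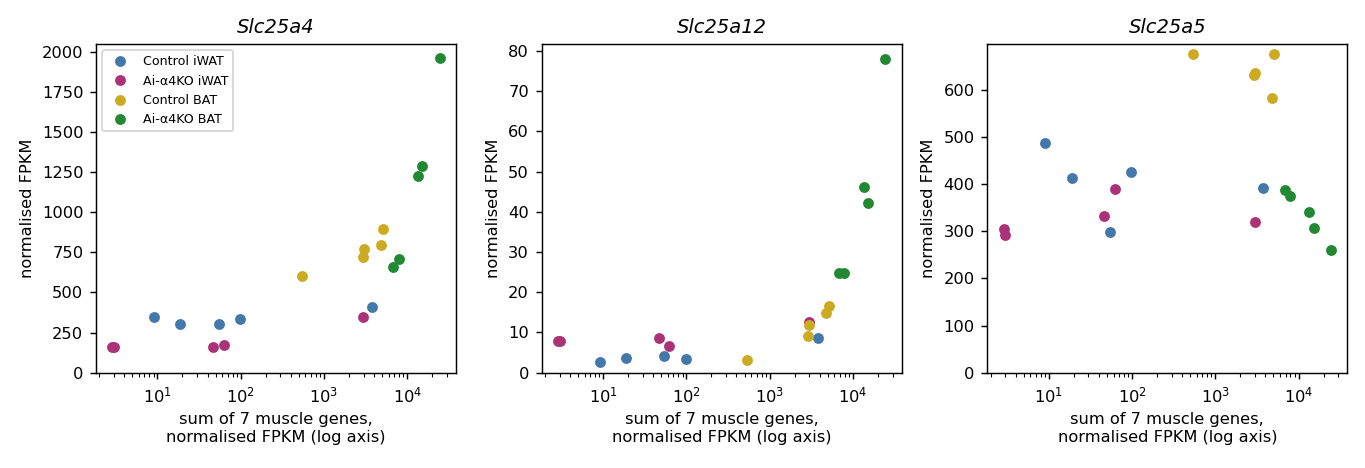
Normalised FPKM of Slc25a4, Slc25a12 and Slc25a5 (y axes) against the summed level of 7 skeletal muscle genes (x axis, log scale), 1 point per library and coloured by group. The Ai-α4KO BAT library with the muscle sum of 24580 has the highest Slc25a4 and Slc25a12 and the lowest BAT value of Slc25a5, 259.6.

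The ADP/ATP carriers export ATP made by respiration. Their interactions of genotype with tissue did not pass (1.39 ± 0.37, adjusted p = 0.0177, for Slc25a4 and −0.64 ± 0.19, adjusted p = 0.0259, for Slc25a5). Slc25a4 was 340 ± 45.2 in Control and 200.01 ± 80.9 in Ai-α4KO iWAT, where it did not pass (−0.77 ± 0.22, adjusted p = 0.0130). Its Control iWAT libraries were at 303.2, 301.7, 349.7, 412.4 and 334.7. Its Ai-α4KO iWAT libraries were at 344.5, 172.9, 159.5, 162.1 and 161.1, and the high value belonged to library 1, which had the muscle sum of 2958. Without that library and Control library 4, Slc25a4 fell (−0.98 ± 0.10, adjusted p = 4.23e-05). In BAT its libraries were at 603.5, 896.5, 772, 721.2 and 798.5 in Control and at 660.8, 707.9, 1230, 1961 and 1287 in Ai-α4KO, which overlapped (0.59 ± 0.27, adjusted p = 0.0728).

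Slc25a5 did not pass in iWAT (−0.30 ± 0.14, adjusted p = 0.0827), but fell there without Control libraries 1 and 4 (−0.52 ± 0.13, adjusted p = 0.00769). In BAT it was at 676.1, 676.8, 636.9, 630.9 and 582.5 in Control and at 387.3, 375.6, 340.3, 259.6 and 306.4 in Ai-α4KO, with no overlap (−0.98 ± 0.13, adjusted p = 3.79e-05). Slc25a4 made up 54.02% ± 4.22 of the summed FPKM of both carriers in Control BAT, 75.2% ± 10.7 in Ai-α4KO BAT, 45.9% ± 4.59 in Control iWAT and, in iWAT of Ai-α4KO mice, 37.1% ± 8.46. The longest exact run shared by the annotated transcripts of Slc25a4 and Slc25a5 was 20 bases. Slc25a5 shares an exact run of up to 97 bases with the pseudogene Slc25a5-ps, shorter than a read of 150 bp. Whether its counts are split was not tested.

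The phosphate carrier Slc25a3 fell in iWAT from libraries at 344.1, 324, 407.4, 315.2 and 291.7 to libraries at 257.1, 254.4, 244.8, 237.5 and 248, with no overlap (−0.44 ± 0.11, adjusted p = 0.00416). The call was lost with scaling by library size alone (−0.32), with limma on log2 FPKM (−0.30) and with a B cell score as covariate (−0.46 ± 0.13, adjusted p = 0.0108). In BAT it was 303 ± 31.5 against 365 ± 48.9 (0.23 ± 0.13, adjusted p = 0.129), and the interaction passed (0.70 ± 0.16, adjusted p = 0.00680). The testis-type ADP/ATP carrier Slc25a31 stayed at or below 0.671 in every library and passed in neither tissue.

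**Figure D5:**
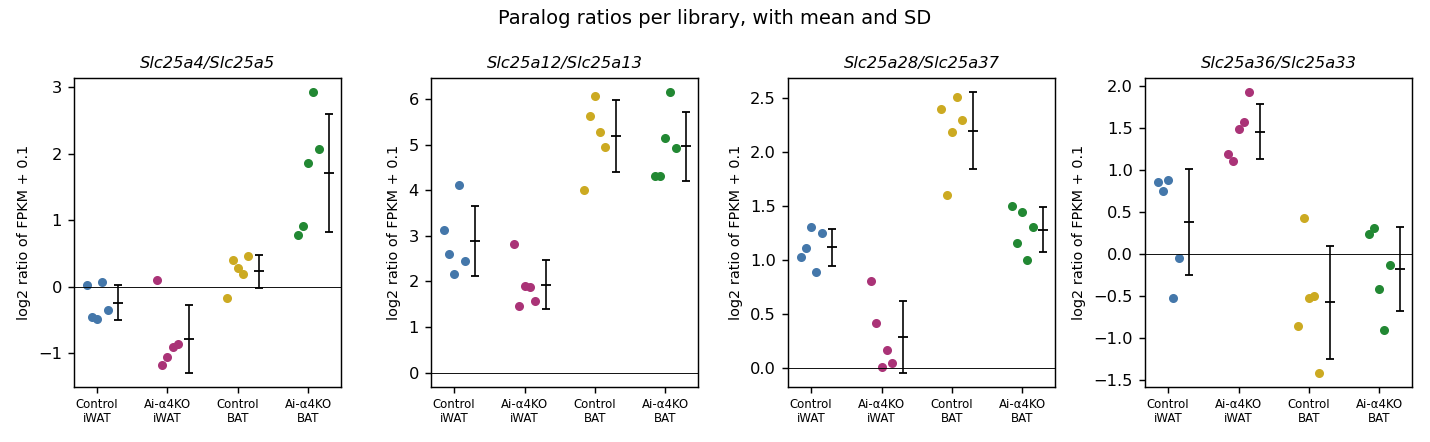
log2 ratio of deposited FPKM + 0.1 for 4 paralog pairs in each library (points), with mean and SD (black). The Slc25a4/Slc25a5 ratio is 0.77 to 2.92 in the Ai-α4KO BAT libraries and −0.16 to 0.45 in the Control BAT libraries.

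The balance between paralogs of like substrate was tested as the log2 ratio of their FPKM + 0.1 in each library, by exact two-sided permutation tests with Benjamini-Hochberg adjustment over 12 ratios and a threshold of adjusted p below 0.05, where the smallest p that 5 against 5 libraries allows is 0.00794. The Slc25a4/Slc25a5 ratio was 0.23 ± 0.24 (SD) in Control BAT and 1.70 ± 0.88 in Ai-α4KO BAT, a difference of 1.47 (exact permutation p = 0.00794, adjusted p = 0.0190), higher in 5 of 5 libraries. Among the Ai-α4KO BAT libraries it followed the muscle sum, with ratios of 0.77, 0.91, 1.85, 2.92 and 2.07 at sums of 6844, 7903, 13510, 24580 and 15210. With the muscle score as a covariate, edgeR's BAT fold change was −0.10 ± 0.33 for Slc25a4 (adjusted p = 0.828) and −0.79 ± 0.18 for Slc25a5 (adjusted p = 0.00360). In iWAT the difference was −0.54 (exact permutation p = 0.0873, adjusted p = 0.105). The mitoferrins, which import iron, shifted in both tissues: Slc25a28/Slc25a37 changed in iWAT from 1.11 ± 0.17 to 0.28 ± 0.33 and in BAT from 2.19 ± 0.35 to 1.28 ± 0.21 (exact permutation p = 0.00794 and adjusted p = 0.0190 in each). The pyrimidine nucleotide carriers Slc25a36/Slc25a33 went from 0.38 ± 0.63 to 1.45 ± 0.33 in iWAT (exact permutation p = 0.00794, adjusted p = 0.0190) and differed by 0.39 in BAT (exact permutation p = 0.333, adjusted p = 0.364). Slc25a12/Slc25a13 differed by −0.96 in iWAT (exact permutation p = 0.0476, adjusted p = 0.0714) and by −0.22 in BAT (exact permutation p = 0.651, adjusted p = 0.651), where both members are far apart in level and the sign turned with a pseudocount of 1. The ratio of the ornithine carriers Slc25a15 and Slc25a2 was not tested because Slc25a2 had at most 13 counts in a library.

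Behind the mitoferrin ratio, Slc25a37 rose and Slc25a28 did not pass. Slc25a37 was at 9.578, 7.63, 7.383, 7.939 and 6.556 in Control iWAT and at 13.19, 13.52, 15.14, 14.22 and 17.6 in Ai-α4KO iWAT (0.91 ± 0.12, adjusted p = 7.92e-05). In BAT it went from 4.12 ± 0.484 to 7.89 ± 1.15 (0.90 ± 0.13, adjusted p = 6.03e-05). Slc25a28 was 16.99 ± 1.98 and 18.1 ± 3.08 in iWAT (0.08 ± 0.13, adjusted p = 0.621) and 19.4 ± 2.73 and 19.4 ± 3.71 in BAT (−0.04 ± 0.15, adjusted p = 0.829). Slc25a37 is known for its high level in blood-forming cells.

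The carriers of cofactors and pyrimidine nucleotides fell together in BAT, with 9 of 9 members passing and 7 of them at 2-fold or more. Over all genes 24.8% fell in BAT, and 13.3% by at least 2-fold. In iWAT 5 of 9 fell, against 18.8% of all genes. The median log2 fold change of these carriers was −1.25 in BAT and −0.88 in iWAT. Slc25a42 was at 72.45, 36.28, 59.22, 47.06 and 112.8 in Control BAT and at 11.05, 7.673, 7.728, 14.09 and 12.02 in Ai-α4KO BAT. It fell 6.42-fold in BAT (−2.68 ± 0.30, adjusted p = 1.14e-05) and 3.90-fold in iWAT (−1.96 ± 0.21, adjusted p = 1.90e-05), with no overlap in either tissue. Slc25a16, another carrier tied to coenzyme A, and Slc25a26, the S-adenosylmethionine carrier, fell in both tissues, with log2 fold changes of −0.88 ± 0.14 and −0.93 ± 0.13 in iWAT and −1.07 ± 0.14 and −1.30 ± 0.16 in BAT.

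Slc25a32, the folate and FAD carrier, fell in BAT from 23.3 ± 9.07 to 6.39 ± 0.695 (−1.90 ± 0.25, adjusted p = 4.55e-05) and did not pass in iWAT (−0.39 ± 0.22, adjusted p = 0.161), and its interaction just missed the threshold (−1.48 ± 0.36, adjusted p = 0.0104). Slc25a51 was at 152.1, 141.4, 144.2, 139.8 and 150.2 in Control BAT and at 69.37, 67.23, 55.32, 58.15 and 64.1 in Ai-α4KO BAT (−1.25 ± 0.11, adjusted p = 1.07e-06). In iWAT its groups did not overlap either, at 45.69 to 74.26 and 38.47 to 43.94, yet the test did not pass (−0.44 ± 0.14, adjusted p = 0.0171). It passed without Control iWAT libraries 1 and 4 (−0.57 ± 0.15, adjusted p = 0.00935). The interaction of Slc25a51 passed (−0.78 ± 0.16, adjusted p = 0.00463). Slc25a36 fell in BAT (−0.76 ± 0.12, adjusted p = 0.000142) and was 11.8 ± 1.23 and 11.7 ± 1.79 in iWAT (−0.03 ± 0.12, adjusted p = 0.874), while Slc25a33 fell in iWAT (−1.22 ± 0.29, adjusted p = 0.00429) and BAT (−1.15 ± 0.27, adjusted p = 0.00256). The iWAT call on Slc25a33 was lost without the libraries of high muscle genes (−0.95 ± 0.28, adjusted p = 0.0174). Slc25a17, a peroxisomal member that carries coenzyme A and related cofactors, fell in BAT (−0.94 ± 0.12, adjusted p = 2.56e-05) and missed the threshold in iWAT (−0.47 ± 0.13, adjusted p = 0.0108). It fell in iWAT without the libraries of high B cell genes (−0.65 ± 0.13, adjusted p = 0.00279) or of high muscle genes (−0.50 ± 0.12, adjusted p = 0.00727).

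The calcium-regulated ATP-Mg/phosphate carriers, which set the adenine nucleotide pool of the matrix, split between members. Slc25a23 fell in iWAT from 28.03 ± 4.37 to 5.35 ± 1.28 (−2.40 ± 0.18, adjusted p = 3.38e-06) and in BAT from 43.3 ± 12.1 to 9.69 ± 2.41 (−2.20 ± 0.22, adjusted p = 4.66e-06). Slc25a24 rose instead. Its libraries were at 7.094, 9.296, 7.539, 8.553 and 8.82 in Control iWAT and at 18.96, 21.93, 30.36, 26.64 and 35.09 in Ai-α4KO iWAT (1.68 ± 0.16, adjusted p = 1.23e-05). In BAT it went from 2.94 ± 0.445 to 16.2 ± 3.42 (2.43 ± 0.17, adjusted p = 2.61e-07), and every Ai-α4KO library was above every Control library in both tissues. Slc25a25 passed in neither tissue (−0.96 ± 0.30, adjusted p = 0.0176 in iWAT, and 0.50 ± 0.30, adjusted p = 0.165 in BAT).

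The carriers of other amino acids and glutathione were grouped with Slc25a45, Slc25a47 and Slc25a48, for which no such substrate is given here. In this group 5 of 9 fell and 1 rose in iWAT, against 18.8% and 21.5% of all genes. In BAT 6 of 9 fell and 1 rose, against 24.8% and 25% of all genes. Slc25a44 was at 41.71, 41.06, 50.68, 45.61 and 52.55 in Control iWAT against 15.71, 13.81, 14.45, 16.34 and 14.55 in Ai-α4KO iWAT (−1.64 ± 0.10, adjusted p = 1.86e-06). In BAT it was 50.6 ± 1.21 against 15.9 ± 1.48 (−1.70 ± 0.09, adjusted p = 6.50e-08). The interaction of Slc25a44 was −0.04 ± 0.12 (adjusted p = 0.869). The glutathione carrier Slc25a39 fell from 123 ± 17.4 to 71.7 ± 19.7 in iWAT (−0.78 ± 0.18, adjusted p = 0.00308) and from 170 ± 25.4 to 93.1 ± 9.71 in BAT (−0.91 ± 0.13, adjusted p = 9.46e-05), while its paralog Slc25a40 fell in BAT (−0.55 ± 0.12, adjusted p = 0.00170) and not in iWAT (−0.09 ± 0.17, adjusted p = 0.692). The BAT calls on Slc25a40 and on Slc25a38, the glycine carrier needed for heme synthesis (−0.66 ± 0.14, adjusted p = 0.00143), were lost without these extreme muscle libraries of BAT, Control 1 and Ai-α4KO 4, where the fold changes were −0.44 ± 0.14 and −0.53 ± 0.16 (edgeR adjusted p = 0.0181 for each). With the muscle score as a covariate, which also ended both calls, they were −0.48 ± 0.19 and −0.42 ± 0.20.

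Slc25a29, a carrier of basic amino acids, fell in iWAT from 3.25 ± 1.30 to 0.755 ± 0.129 (−2.11 ± 0.30, adjusted p = 0.000154) and did not pass in BAT (−0.72 ± 0.38, adjusted p = 0.111). Its neighbour Slc25a47 on chromosome 12, 15252 bases away, fell in iWAT (−1.11 ± 0.22, adjusted p = 0.00144) and BAT (−1.17 ± 0.24, adjusted p = 0.00115). The BAT call was lost with the muscle score as a covariate, where the fold change was close and the SE larger (−1.06 ± 0.37, adjusted p = 0.0374). The ornithine carrier Slc25a15, which serves the urea cycle in liver, was 6.20 ± 1.04 and 5.58 ± 0.810 in iWAT and 8.59 ± 1.56 and 7.31 ± 1.39 in BAT and passed in neither. Slc25a45 rose from 8.26 ± 2.53 to 17.5 ± 3.33 in iWAT (1.07 ± 0.20, adjusted p = 0.000969) and from 2.76 ± 0.718 to 9.82 ± 1.91 in BAT (1.79 ± 0.21, adjusted p = 1.36e-05).

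Slc25a48 was nearly lost in Ai-α4KO tissue. It had 18 to 52 counts in Control iWAT libraries and 0 to 1 in Ai-α4KO iWAT libraries, and against a floor of 3 counts per library it was at least 13.5-fold lower (adjusted p = 7.67e-06). In BAT it was at 3.404, 2.063, 6.172, 3.65 and 5.502 in Control and at 0.2715, 0.03571, 0.1131, 0.1719 and 0.07038 in Ai-α4KO, where counts were 2 to 15 (−4.97 ± 0.48, adjusted p = 3.15e-06). Floors and such bounds cover counting error only.

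Of the members without an agreed substrate, Slc25a35 fell from libraries at 49.33, 63.34, 85.14, 40.18 and 42.75 to libraries at 11.64, 8.232, 6.625, 10.27 and 6.771 in iWAT (−2.69 ± 0.24, adjusted p = 8.40e-06). It fell from 103 ± 7.81 to 17.2 ± 2.07 in BAT (−2.63 ± 0.12, adjusted p = 3.87e-08), the lowest adjusted p of any member there. Slc25a43 rose in iWAT from 2 to 18 counts per library to 30 to 48 counts (2.27 ± 0.46, adjusted p = 0.00158). In BAT it had 0 counts in all 5 Control libraries and 11 to 22 in Ai-α4KO libraries, which is at least 4.11-fold higher against 3 counts per library (adjusted p = 5.96e-05). Its interaction passed (adjusted p = 0.00664), and the size of that interaction rests on the empty Control BAT group. Slc25a43 lies 18344 bases from Slc25a5 on chromosome X, and the latter did not rise in either tissue. Slc25a46, an outer membrane member involved in mitochondrial shape, fell in BAT (−0.70 ± 0.13, adjusted p = 0.000713) and did not pass in iWAT (−0.28 ± 0.11, adjusted p = 0.0523) unless Control libraries 1 and 4 were left out (−0.44 ± 0.11, adjusted p = 0.00862). Slc25a34 and Slc25a53 and the uncoupling-protein-like Slc25a14, Slc25a27 and Slc25a30 passed in neither tissue, with log2 fold changes from −0.54 to 0.50. Slc25a14 passed in iWAT without the libraries of high muscle genes (0.63 ± 0.16, adjusted p = 0.00818).

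Across the family, the interaction of genotype with tissue passed for 4 of 42 members, against 4.86% of 15230 genes. These were Slc25a3, Slc25a10 and Slc25a43, with a more positive effect in BAT, and Slc25a51, with a more negative effect in BAT. With the muscle score as a covariate, a fit added after the data were seen, the sizes were close to these, at 0.72 ± 0.17 for Slc25a3, 1.88 ± 0.45 for Slc25a10 and −0.69 ± 0.16 for Slc25a51, and none of the 4 passed (adjusted p from 0.0109 for Slc25a43 to 0.0140 for Slc25a10). Each of the 4 was also lost in some of the fits that left out 1 library.

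Because adipocyte markers fell with genotype, 23 tested members, those the naming rule picked (Slc25a44 was not among them), were also expressed relative to the mean log2 CPM of 8 adipocyte markers in the same library, in 46 exact two-sided permutation tests without adjustment. In iWAT the median change of these markers was −1.78 (log2), and in BAT it was −1.77, so a gene that did not change comes out higher relative to them. At an unadjusted exact p below 0.05, 84.7% of all genes tested were higher relative to the markers in Ai-α4KO iWAT and 1.39% lower, beside 31 and 5 of the 43 family members tested. In BAT 83.4% of genes were higher and 1.37% lower, beside 26 and 4 of 42 members. A higher value relative to the markers is therefore what most genes gave. On the log2 scale, Slc25a1 differed relative to the markers by −1.54 in iWAT (exact permutation p = 0.00794) and by −0.87 in BAT (exact permutation p = 0.0238). Slc25a35 differed by −0.97 and −0.996 (exact permutation p = 0.00794 in each), and Slc25a48 by −1.98 and −3.08 (exact permutation p = 0.00794 in each). Slc25a23 differed by −0.72 in iWAT (exact permutation p = 0.00794) and by −0.55 in BAT (exact permutation p = 0.143). Slc25a20 was higher in iWAT by 0.75 (exact permutation p = 0.0238) and differed by −0.05 in BAT (exact permutation p = 0.889). Slc25a10 differed by −0.56 in iWAT and by 1.45 in BAT (exact permutation p = 0.00794 in each). Other members that fell in absolute level were higher relative to the markers, among them Slc25a39 by 0.89 in iWAT (exact permutation p = 0.0238) and 0.74 in BAT (exact permutation p = 0.00794), Slc25a3 by 1.26 in iWAT (exact permutation p = 0.00794) and Slc25a5 by 0.65 in BAT (exact permutation p = 0.0159). Slc25a51 differed by 0.38 in BAT (exact permutation p = 0.0873), and Slc25a42 by −0.25 in iWAT (exact permutation p = 0.190) and −0.97 in BAT (exact permutation p = 0.0556). Slc25a24 was higher by 3.35 and 4.04 (exact permutation p = 0.00794 in each). Macrophage markers rose in the same libraries, with 6 of 6 passing in each tissue, as did 4 of 4 neutrophil markers, while 3 of 3 endothelial markers fell in each tissue. In BAT 2 of 3 fibroblast, 2 of 3 T cell, 1 of 3 B cell and 5 of 7 skeletal muscle markers also rose. In iWAT 1 of 4 B cell markers fell, and no fibroblast, T cell or muscle marker passed. The part of these cells in the members that changed was not tested.

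Family members under another symbol and proteins that work with carriers gave the following values. Ucp1 was 3.12 to 190.7 in Control iWAT and 0.431 to 1.54 in Ai-α4KO iWAT (−6.57 ± 1.07, adjusted p = 0.000362), and it fell from 3203 ± 660 to 626 ± 275 in BAT (−2.39 ± 0.29, adjusted p = 1.85e-05). Ucp2, abundant in immune cells, rose in iWAT (1.08 ± 0.23, adjusted p = 0.00203) and BAT (1.59 ± 0.19, adjusted p = 1.47e-05). Ucp3, Mtch1 and Mtch2 fell in both tissues. Both pyruvate carrier subunits fell in both tissues. Mpc1 went from 389 ± 109 to 132 ± 9.86 in iWAT (−1.56 ± 0.20, adjusted p = 6.38e-05) and Mpc2 changed by −1.63 ± 0.19 there, against −1.13 ± 0.23 and −1.03 ± 0.24 in BAT. Of 6 genes for import of carriers through TIM22 that were in the table, 1 fell in iWAT and 4 in BAT, with Agk, a subunit of that translocase, falling in both (−0.54 ± 0.10, adjusted p = 0.00101, and −1.21 ± 0.10, adjusted p = 1.38e-06). Of the 3 outer membrane channels, only Vdac1 passed, in iWAT (−0.69 ± 0.14, adjusted p = 0.00151). Of 5 sideroflexins, which carry serine and related amino acids, 3 fell and 1 rose in each tissue, where the gene that rose was Sfxn3 (1.07 ± 0.12 in iWAT and 1.96 ± 0.15 in BAT).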

How the data were processed

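RNA of 20 libraries was prepared with a stranded mRNA kit and read as 150 bp pairs. The authors aligned reads to mm10 with STAR 2.5.3a after bcl2fastq 2, per the labels. They deposited estimated counts and FPKM per gene, and the tool that counted is not given in the sources used here. Counts were rounded to whole numbers and filtered with filterByExpr at its defaults. They were scaled by TMM and fitted with edgeR 4.0.16 in R 4.3.3, within each tissue or between Control tissues, and over all 20 libraries for the interaction. P-values were adjusted over all genes tested. Ratios used the deposited FPKM + 0.1 and exact permutation tests. Library totals of 24023371 to 50384446 make 3 counts equal 0.0595 to 0.125 CPM. A floor of 3 counts per library bounds folds against empty groups.

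The members, lists and tests were chosen with earlier results of these data known. Single-library values are given by rule for members among the 6 highest in either Control tissue, the 4 largest passing changes per direction and tissue, those passing the interaction, and 5 paralog pairs. Those of Slc25a44 were chosen after they were seen. DESeq2 1.42.0, limma 3.58.1, other scalings, filters, covariates and left-out libraries were alternatives. Scripts were tested on simulated data. No identical libraries were found. Sequences come from RefSeq (GRCm38.p6) and shared runs from GENCODE transcripts. The values of 1 member are not reported here by name or drawn, though it is in the counts.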

Additional observations from a re-analysis of the deposited data

Results flagged for a closer look

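Of 95 groups of 5 libraries tested for a library apart from the others, 5 were picked out, and chance alone picks about 1 in 20. Slc25a4 was at 344.5 normalised FPKM in Ai-α4KO iWAT library 1, Slc25a39 at 106.3 and Slc25a42 at 5.99, each the highest of the group and in the library with the high muscle genes. Slc25a12 was at 8.55 in Control iWAT library 4, the Control iWAT library with the high muscle genes. Slc25a45 was at 12.69 in Control iWAT library 1, which had the highest B cell genes. The part of these cells in the values was not tested. The genotype effect differed between the tissues for 4 members, by an interaction of 0.70 for Slc25a3, 2.003 for Slc25a10, 4.82 for Slc25a43 and −0.78 for Slc25a51 on the log2 scale.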

How the results depend on the processing

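At an adjusted p below 0.05, 8 members rose in Ai-α4KO iWAT. At least 2-fold higher in Ai-α4KO BAT were 3 members with at least 10 counts in every library or with limma on log2(FPKM + 1), which also gave 9 at least 2-fold lower. With the muscle score as a covariate, chosen after seeing the data, 3 members were at least 2-fold lower in Control BAT than in Control iWAT. Positive interactions numbered 6 with DESeq2 or at an adjusted p below 0.05 and 0 with the muscle covariate. Negative ones numbered 3 with DESeq2, 4 at 0.05, 2 with limma on log2(FPKM + 1), and 0 with library size only, upper-quartile scaling, no filter, at least 10 counts or the muscle covariate. Deviations of same-numbered libraries from their group means correlated at −0.451 to 0.244. Differently numbered libraries were not compared, so this cannot decide whether the numbers pair the samples. With the replicate number as a block there were 0 positive and 2 negative interactions.

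With limma on log2(FPKM + 1) the interaction turned to −0.12 for Slc25a43 and −1.22 for Slc25a48, and with a pseudocount of 1 the BAT difference of the Slc25a12/Slc25a13 ratio turned to 1.22 and the depot difference of Slc25a4/Slc25a5, at 0.47, went below the adjusted p of 0.05 set for ratios. The cause was not tested.

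Leaving out 1 library gave 0 to 4 positive and 0 to 2 negative interactions. The Slc25a51 call was lost without Control iWAT library 1, any Ai-α4KO iWAT library or Ai-α4KO BAT libraries 1, 2, 3 or 5, at −0.71 to −0.64, the Slc25a43 call without any 1 Control BAT library, the Slc25a10 call when any 1 of 8 libraries was left out (1.82 to 2.05) and the Slc25a3 call when any 1 of 5 was (0.63 to 0.73). The Slc25a4/Slc25a5 difference was −0.76 to −0.44 in iWAT, where it passed 0.05 without Ai-α4KO library 1, and 0.41 to 0.57 between Control tissues, where it passed without Control iWAT library 4 or Control BAT library 1. Slc25a12/Slc25a13 was −1.19 to −0.66 in iWAT (passing without Ai-α4KO library 1), and Slc25a36/Slc25a33 −1.21 to −0.75 between Control tissues (passing without Control BAT library 2). Between Control tissues the Slc25a25 call was lost when any 1 of 8 libraries was left out (−1.40 to −1.11) and the Slc25a36 call without Control BAT library 3 (0.50). Lost in iWAT were the calls on Slc25a3 without Ai-α4KO libraries 3, 4 or 5 (−0.44 to −0.42), Slc25a39 without 3 or 5 (−0.73 to −0.71), Slc25a33 without Control 5 or Ai-α4KO 3, 4 or 5 (−1.21 to −1.07), and Slc25a22 when any 1 of 8 libraries was left out (−0.87 to −0.71). Scaling by library size alone moved the median of all genes to 0.13 in iWAT, 0.23 in BAT and −0.20 between Control tissues. Members under about 10 counts are limited by depth.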
